A study of Mus musculus with 8 samples.

Results

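Accessible chromatin far from genes was described from ATAC-seq, which marks open DNA by the cuts of the Tn5 transposase, in 8 libraries from mouse brain. The deposited peaks of all 8 libraries were merged into 443327 union regions. A far region was a union region whose centre lay more than 50 kb outside every interval of the 21887 protein-coding genes of the mm10 gene table, and 99568 regions (22.5%) met this limit, which uses position and no peak value. These regions are intergenic with respect to protein-coding genes only, since 16.6% overlapped an annotated long noncoding RNA (lncRNA) gene. The dLGN (dorsal lateral geniculate nucleus, the visual relay of the thalamus) was microdissected at postnatal day 32 from C57Bl/6J mice that had eaten PLX chow (PLX5562, given to deplete microglia) or a parallel control chow, both from postnatal day 20. Flash-frozen coronal sections that hold cortex, hippocampus and dLGN came from untreated Fn14 KO mice, which lack the receptor of the cytokine TWEAK, and from their Fn14 WT littermates, on the C57Bl/6J background, at postnatal day 27. Each of the 4 groups had 2 libraries. How many animals a library held is not given in the sources used here, so p-values measure the spread between libraries, which may be technical. All comparisons of dLGN with section also compare ages, dissections and diets, which cannot be told apart from tissue here.

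Open chromatin far from genes holds enhancers, DNA elements that raise the activity of a distant promoter through bound transcription factors and DNA looping. Such elements are known to be used in fewer cell types than promoters, which many cell types share. Developmental transcription factor genes and adhesion genes often border long stretches without other genes, and in the brain these stretches carry enhancers of single regions and cell types. A far region can also hold the start of a lncRNA or a microRNA (miRNA) gene, since the limit counts protein-coding genes only.

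Sequences of the peaks themselves were not used here. RefSeq sequences (GRCm38.p6, the mm10 assembly) existed for the miRNAs and lncRNA starts under far regions. 31 far regions overlapped 36 of the 1005 miRNA hairpins in the RefSeq table. The mature miRNAs below belong to the regions whose rank differed between tissues, plus 1 relative of the miR-344 family whose region did not pass the test, and capitals mark the seed (bases 2 to 8), the part that pairs with target RNAs.
mmu-miR-137-3p (chr3:118433901-118433923, plus strand): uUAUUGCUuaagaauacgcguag
mmu-miR-181a-5p (chr1:137966468-137966490, plus strand): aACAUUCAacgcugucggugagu
mmu-miR-181b-5p (chr1:137966650-137966673, plus strand): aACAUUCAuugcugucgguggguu
mmu-miR-344d-3p (chr7:61685279-61685300, minus strand): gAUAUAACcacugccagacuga
mmu-miR-344i (chr7:62085281-62085300, minus strand): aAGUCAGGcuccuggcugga
mmu-miR-129-5p (chr2:94241419-94241439, minus strand): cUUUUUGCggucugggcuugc
mmu-miR-1952 (chr2:138819943-138819959, plus strand): uCUCCACCcuccuucug
mmu-miR-344c-5p (chr7:61837363-61837385, minus strand): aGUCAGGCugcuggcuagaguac
mmu-miR-344-5p (chr7:61877819-61877844, minus strand): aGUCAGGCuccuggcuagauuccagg
mmu-miR-344g-5p (chr7:61982335-61982355, minus strand): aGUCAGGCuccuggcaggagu
The first 5 are from regions that ranked higher in dLGN, the next 3 and the last from regions that ranked lower in dLGN, and mmu-miR-344-5p is from a region that did not pass the test. The sequence of mmu-miR-344d-3p is shown at Mir344d-2, but Mir344d-3 gives the same mature sequence. The far region over Mir344d-3 did not pass (rank difference -0.23 ± 0.32, SE, limma adjusted p = 0.607). The 2 miR-181 sequences share the seed ACAUUCA, and the 5p arms of miR-344c, miR-344 and miR-344g share GUCAGGC.

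The start windows of 4 lncRNAs, from 250 bases before to 50 bases after the annotated start, are shown because 2 lie under far regions found in all 8 libraries (Gm26901 and Dubr), 1 under a region called for dLGN (9130015L21Rik) and 1 under a region called for section (Gm30092). Capitals mark CG dinucleotides (CpG).
Gm26901 (chr1:7398047-7398346, minus strand): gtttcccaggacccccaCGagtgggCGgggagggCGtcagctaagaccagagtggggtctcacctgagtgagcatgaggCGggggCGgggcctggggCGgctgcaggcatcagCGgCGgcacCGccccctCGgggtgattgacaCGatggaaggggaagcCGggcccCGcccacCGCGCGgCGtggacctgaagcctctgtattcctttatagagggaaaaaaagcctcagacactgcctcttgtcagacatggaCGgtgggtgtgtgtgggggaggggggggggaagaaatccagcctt
Dubr (chr16:50732724-50733023, minus strand): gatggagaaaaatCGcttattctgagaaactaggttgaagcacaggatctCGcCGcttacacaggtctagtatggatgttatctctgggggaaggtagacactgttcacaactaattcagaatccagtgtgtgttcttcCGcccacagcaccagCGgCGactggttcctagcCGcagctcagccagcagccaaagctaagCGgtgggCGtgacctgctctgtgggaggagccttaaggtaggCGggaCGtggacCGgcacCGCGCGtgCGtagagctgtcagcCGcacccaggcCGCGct
9130015L21Rik (chr2:160016403-160016702, plus strand): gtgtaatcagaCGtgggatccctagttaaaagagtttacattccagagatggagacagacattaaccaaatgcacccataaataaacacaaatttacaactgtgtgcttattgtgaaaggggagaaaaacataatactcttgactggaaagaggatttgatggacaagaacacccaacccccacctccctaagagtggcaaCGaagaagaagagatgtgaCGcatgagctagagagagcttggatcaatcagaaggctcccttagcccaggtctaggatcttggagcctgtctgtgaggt
Gm30092 (chr4:17636142-17636441, minus strand): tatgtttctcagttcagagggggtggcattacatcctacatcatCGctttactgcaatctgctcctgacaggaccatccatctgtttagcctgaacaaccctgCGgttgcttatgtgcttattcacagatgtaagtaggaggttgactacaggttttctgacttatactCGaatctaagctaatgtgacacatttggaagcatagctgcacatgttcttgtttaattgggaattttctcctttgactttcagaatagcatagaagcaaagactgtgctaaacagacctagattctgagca
These windows hold 18, 19, 3 and 3 CpGs in the order shown. The first 2 are not typical, since the 168 windows under far regions selected in all 8 libraries had a median of 6. Of those, 25% had 10 or more, and the 11 windows under regions called for 1 tissue had a median of 4. The 1069 windows under any far region also had a median of 4.

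Far regions made up less of the strongest chromatin than of the whole list. To compare lists of equal length, overlapping peaks of a library were merged and the 50000 merged regions with the highest −log10 p (the authors' peak p-value) were taken, called selected regions below. Of these, 15.3% to 20.9% were far, while the far share was 0.5% to 1.1% among the top 1000 regions and 17.2% to 23.9% among all merged regions of a library. Selected far regions occurred at 9.43 to 10.4 per Mb of far sequence in dLGN libraries and 7.61 to 9.23 per Mb in section libraries, against 23.5 to 24.04 and 24.2 to 25.1 per Mb in the rest of the genome. They were narrower than other selected regions in all 8 libraries, with medians of 508 to 564 bp and 590 to 664 bp, a mean difference of -77.4 ± 18.1 bp (SD, n = 8 libraries; exact 2-sided sign-flip permutation p = 0.00781, the smallest possible). The weakest selected region had a −log10 p of 25.2 to 33.0 in dLGN libraries and 13.4 to 21.5 in section libraries, so the dLGN lists ended at stronger peaks; the part of this in the tissue comparisons below was not tested. Read depth is unknown.

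Selected far regions had fold values at or above those of other selected regions in the same library, and lower −log10 p. Their median fold enrichment (the authors' signal value) was 9.53 and 9.21 with PLX chow, 9.41 and 8.56 with control chow, 7.20 and 6.72 in Fn14 KO and 6.56 and 6.51 in Fn14 WT. For other selected regions it was 9.39 and 9.12, 9.41 and 8.56, 6.97 and 6.49, and 6.56 and 6.39 in the same order. Their median −log10 p was lower than that of the other selected regions in each library, at 51.2 to 66.6 against 58.2 to 77.0 in dLGN and 24.4 to 36.2 against 28.9 to 44.6 in section. These are the authors' values per peak, and their size between libraries depends on depth.

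More of the selected chromatin lay far from genes in dLGN than in section. The far share was 20.9% and 19.0% with PLX chow and 20.0% and 19.5% with control chow, against 15.3% and 18.02% in the Fn14 KO libraries and 17.3% and 18.6% in the Fn14 WT libraries. Every dLGN library was above every section library, and Fn14 KO 1 was the lowest. The means were 19.9 ± 0.822% and 17.3 ± 1.42% (SD, n = 4 each), a difference of 2.54 percentage points (exact 2-sided permutation p = 0.0286, the smallest possible with 4 against 4; 0.0343 after adjustment over 6 tissue tests). Without Fn14 KO 1 the difference was 1.88 points. By chromosome, the mean far share was higher in dLGN on 19 of 20 chromosomes and the libraries did not overlap on 10 of them; chromosome X had 13.9 ± 1.04% in dLGN and 14.4 ± 1.83% in section.

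Between 100 and 500 kb from genes dLGN libraries had more selected regions. At 100 to 250 kb, they had 3630 ± 155 selected regions and section libraries 3098 ± 238, and at 250 to 500 kb they had 2086 ± 112 and 1708 ± 196 (SD, n = 4 each; exact 2-sided permutation p = 0.0286 for both, with no overlap). At 50 to 100 kb the counts were 2968 ± 56.2 and 2834 ± 82.8 (exact permutation p = 0.0571), and over 500 kb 1246 ± 89.4 and 1018 ± 207 (exact permutation p = 0.0857), with overlapping libraries in both. The 4 tests were not adjusted for each other. With all genes of the table as the distance reference, lncRNA genes included, the far share differed by 1.12 points (exact permutation p = 0.0571).

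**Figure D1:**
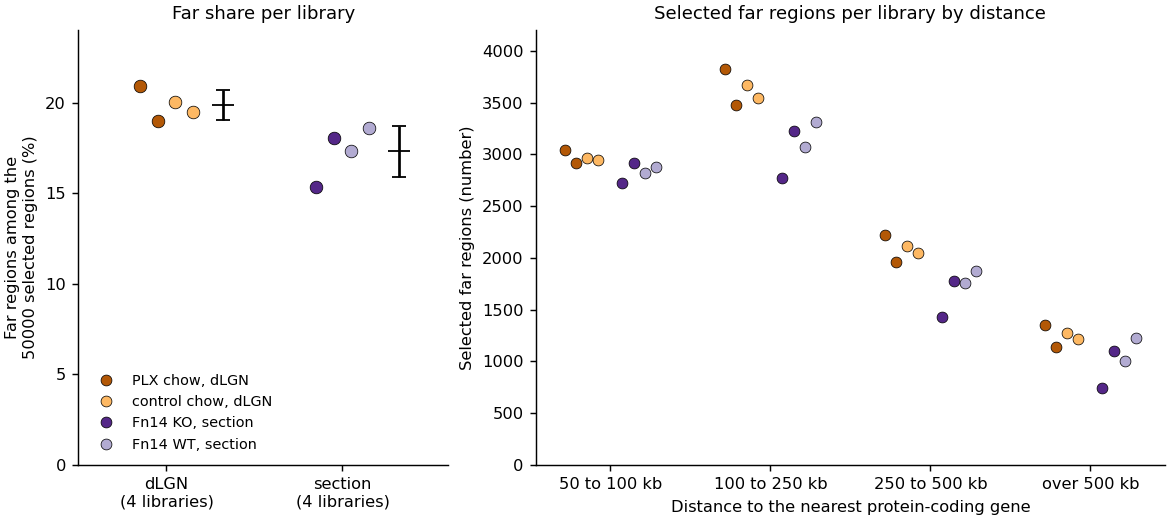
Left, percentage of far regions among the 50000 selected regions of each library (points) with the mean and SD of the 4 libraries per tissue (black); right, number of selected far regions per library by distance to the nearest protein-coding gene. The 4 dLGN libraries lie between 19.0% and 20.9% and the 4 section libraries between 15.3% and 18.6%, and the tissues are apart at 100 to 250 kb and 250 to 500 kb.

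Within the full list of a library, far regions ranked lower in dLGN and not in section. The median percentile of −log10 p of far regions minus that of other regions was -3.08 and -4.41 in PLX chow, -3.61 and -4.09 in control chow, 0 and 3.02 in Fn14 KO and 2.30 and 1.86 in Fn14 WT. All dLGN values were negative and no section value was. The means were -3.80 ± 0.579 in dLGN and 1.79 ± 1.29 in section (SD, n = 4 each), which differed by -5.59 (exact 2-sided permutation p = 0.0286; adjusted 0.0343). Over all 8 libraries the mean of -1.002 ± 3.13 was not shown to differ from 0 (exact 2-sided sign-flip permutation p = 0.391). The median width of selected far regions was 539 ± 18.1 bp in dLGN and 539 ± 24.4 bp in section, a difference of 0.75 bp (exact permutation p = 1).

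Far regions were shared by fewer libraries the farther they lay from genes. Of 19969 far regions selected in any library, 2686 (13.5%) were selected in all 8, and of 70516 other regions 20534 (29.1%) were. By distance this share was 29.7% inside genes, 42.9% within 5 kb, 21.0% at 5 to 50 kb, 18.1% at 50 to 100 kb, 13.0% at 100 to 250 kb, 10.7% at 250 to 500 kb and 9.0% beyond 500 kb. Another 24.5% of far regions were selected in exactly 4 libraries, against 15.6% of other regions. Among far regions with a peak of any strength, 8139 (8.17%) had one in all 4 dLGN libraries and no section library, and 5383 (5.41%) in all 4 section libraries and no dLGN library; in the rest of the genome these were 11802 (3.43%) and 13422 (3.90%).

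**Figure D2:**
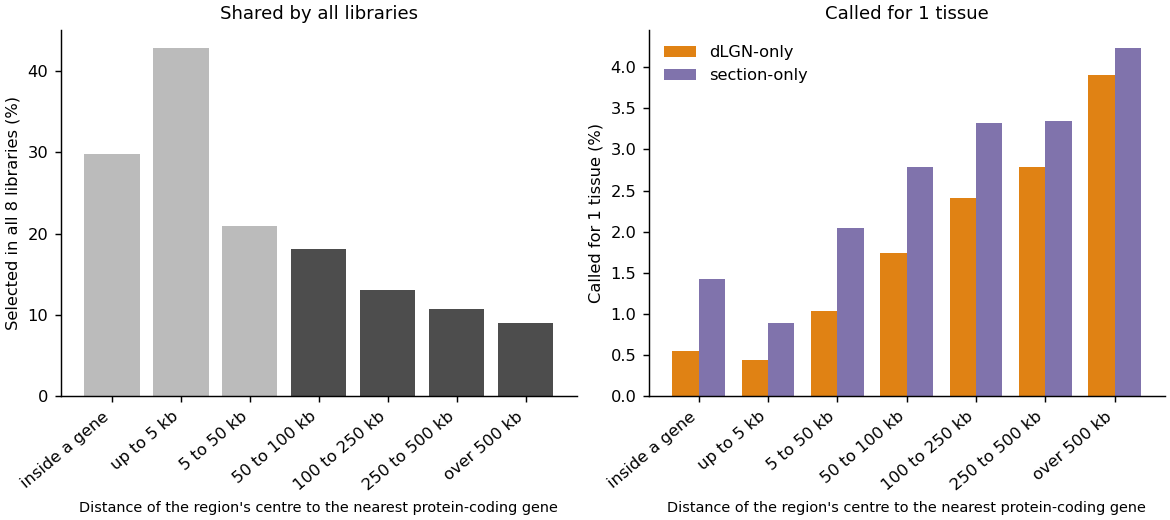
Percentage of the regions selected in at least 1 library that were selected in all 8 (left) or were called for 1 tissue (right), by distance of the region's centre to the nearest protein-coding gene; dark bars on the left are far regions. The share in all 8 libraries is 42.9% within 5 kb and 9.0% beyond 500 kb, while the dLGN-only share is 0.437% and 3.90% and the section-only share 0.890% and 4.24%.

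The far regions separated the tissues more than other regions did. The Jaccard index (regions selected in both libraries over regions selected in either) was 0.719 to 0.765 between dLGN libraries, 0.525 to 0.610 between section libraries and 0.231 to 0.340 between a dLGN and a section library. Its mean was 0.659 ± 0.0846 within a tissue (SD, 12 pairs) and 0.285 ± 0.0317 between tissues (SD, 16 pairs), a difference of 0.373 (exact 1-sided permutation p = 0.0286, the smallest possible). For other regions the means were 0.731 ± 0.0533 and 0.492 ± 0.0356, a difference of 0.239. The far difference exceeded the other by 0.134 (same exact permutation, 1-sided p = 0.0286; adjusted 0.0343). The far lists held 9492 to 10453 regions in dLGN libraries and 7664 to 9293 in section libraries; the part of this gap in the index was not tested.

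**Figure D3:**
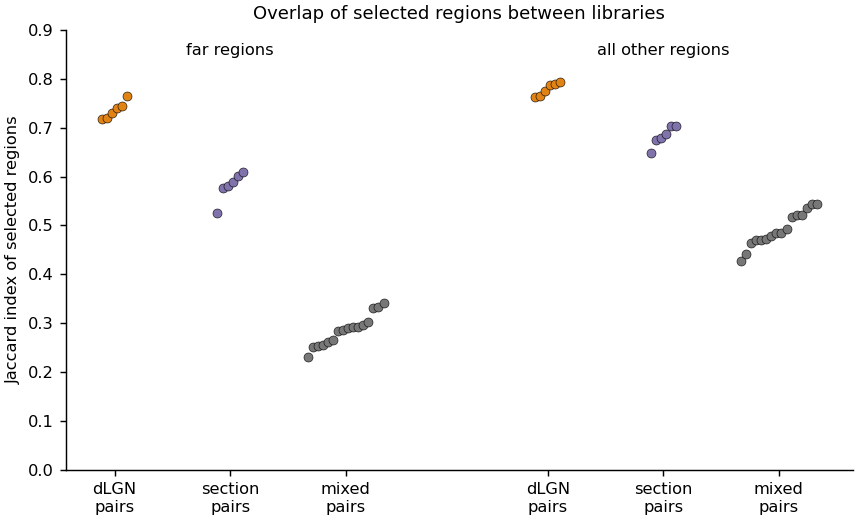
Jaccard index of selected regions for each pair of libraries (points), for far regions and for all other regions, with 6 pairs within dLGN, 6 within section and 16 mixed pairs. Mixed pairs lie at 0.231 to 0.340 for far regions and at 0.427 to 0.544 for other regions.

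Regions called for 1 tissue were selected in all 4 of its libraries while the other tissue's 4 lists held no peak there. 498 far regions were called dLGN-only and 658 section-only. Over all 443327 union regions the same rule called 948 (0.214%) and 1718 (0.388%), so far regions were 52.5% of the dLGN-only and 38.3% of the section-only calls, against 22.5% of the union and 22.1% of regions selected in any library. The share called dLGN-only was 0.546% inside genes and 3.90% beyond 500 kb, and the share called section-only 1.42% and 4.24%. The counts move with the list length, to 60 and 128 with 25000 selected regions and 2426 and 2159 with 100000. In bulk tissue, fewer cells that use a region and less accessibility per cell cannot be told apart. The sections hold dLGN too, so a dLGN-only region lacks a deposited peak in a mix that includes dLGN. The dLGN-only and section-only calls are therefore not mirror images.

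The 10 strongest dLGN-only far regions lay in 10 different gene-free gaps. The first was 291837 bp from Trhde, which encodes the enzyme that degrades thyrotropin-releasing hormone (chromosome 10, 114106709 to 114107258). Its −log10 p was 218 and 156 in PLX chow and 184 and 173 in control chow, with folds of 20.8, 18.5, 18.5 and 18.02, and no section library had a peak. The next lay 398192 bp from Mdfic, at 112.6 to 140.6, and the third in the gap between Fn1, encoding fibronectin, and Mreg, at 109.6 to 156.9. A region 574195 bp from Cdh6 and 2977948 bp from Cdh9, a pair of type II cadherin genes (chromosome 15, 13750341 to 13750863), had 129 and 105 in PLX chow and 105 and 137 in control chow. A region 1260018 bp from Cdh8 and 1954411 bp from Cdh11 (chromosome 8, 100677341 to 100678028) had 152 and 95.1 in PLX chow and 148 and 111 in control chow. The remaining 5 lay in the gaps of Grik2 (a kainate receptor subunit) and Ascc3, Tmprss15 and Ncam2 (a neural adhesion molecule), Mei4 and Irak1bp1, Stim2 and Pcdh7 (a protocadherin), and Triqk and Runx1t1 (a transcriptional corepressor). PLX chow and control chow values overlapped in 8 of these 10 regions, and by the calling rule no section library had a peak in any.

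The 10 strongest section-only far regions lay in 10 other gaps. The first lay 208998 bp from Lilr4b and 282458 bp from Sim1, a transcription factor of hypothalamic neurons (chromosome 10, 51271235 to 51271994). Its −log10 p was 117 and 141 in Fn14 KO and 112 and 113 in Fn14 WT, with folds of 16.3, 17.4, 16.4 and 16.2, and no dLGN library had a peak. The second covered the start of the lncRNA Gm30092 shown above, 217011 bp from Mmp16, a membrane-bound matrix metalloproteinase gene (chromosome 4, 17635548 to 17636574), with 112 and 183 in Fn14 KO and 118 and 149 in Fn14 WT. A region 235174 bp from Adgrl3, the adhesion receptor latrophilin 3 (chromosome 5, 80783314 to 80784508), had 102 and 129.9 in Fn14 KO and 89.9 and 111 in Fn14 WT. The others lay in the gaps of Stpg2 and Pdha2, A830018L16Rik and Sulf1 (a sulfatase of heparan sulfate), Cst10 and Syndig1 (a synaptic membrane protein bound to AMPA receptors), Tusc1 and Caap1, Sema6a (a transmembrane semaphorin) and Eno1b, C9orf72 and Lingo2, and Cdh2 (N-cadherin) and Dsc3. Fn14 KO and Fn14 WT values overlapped in 7 of these 10 regions, and the lowest value in any section library was 72.7.

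Genotype and diet each gave almost no far region of their own. 2 far regions were called Fn14 KO-only, of 12 in the whole union (0.00271%), and 1 Fn14 WT-only, of 4 (0.000902%). 1 of the Fn14 KO-only regions lay 117910 bp from Rbfox1, a neuronal splicing regulator (chromosome 16, 5766573 to 5767194), with a −log10 p of 22.0 and 23.4 in Fn14 KO. Control chow 1 had a weak peak of 3.43 there. The Fn14 WT-only region lay 212834 bp from Cdh9 (chromosome 15, 17069829 to 17070116), with 17.0 and 15.0 in Fn14 WT. The weakest selected region of these libraries had 21.5 and 18.6 in Fn14 KO and 15.5 and 13.4 in Fn14 WT, so these calls rest on peaks near the end of the lists. Leaving out any 1 of the 4 section libraries gave 17 to 29 Fn14 KO-only and 6 to 13 Fn14 WT-only far regions. With a library left out the rule asks for less, so a rise in these counts is built into the rule. The share of other regions called was not computed for these settings.

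1 far region was called PLX chow-only, the single such region in the union (0.000226%), and none control chow-only (0%). It lay inside Firre, an X-linked lncRNA gene that takes part in nuclear organization, 178986 bp from Olfr1324 (chromosome X, 50605077 to 50605883). Its −log10 p was 27.9 and 32.2 in PLX chow with no peak in control chow, and Fn14 KO 2 and Fn14 WT 1 also had a peak there, with 42.3 and 39.3, while Fn14 KO 1 and Fn14 WT 2 had none. Without PLX chow 1, which makes the rule easier to meet, there were 4 PLX chow-only far regions. Libraries with and without the Firre peak therefore occurred in each genotype.

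The far share, given above per library, averaged 16.7 ± 1.91% in Fn14 KO and 17.95 ± 0.899% in Fn14 WT (SD, n = 2 each), a difference of -1.27 points (exact 2-sided permutation p = 0.667), and 0.0740 points without Fn14 KO 1. The median width of selected far regions was 557.5 ± 9.19 bp in Fn14 KO and 519.5 ± 16.3 bp in Fn14 WT, without overlap, and the percentile of fold of far minus other regions was 8.22 ± 0.378 in Fn14 KO and 4.51 ± 1.97 in Fn14 WT, also without overlap (exact 2-sided permutation p = 0.33 for both). PLX chow minus control chow was 0.175 points (exact permutation p = 1). With 2 libraries against 2 no p can be smaller than 0.33. The Jaccard index of far regions was 0.589 ± 0.0177 within a genotype and 0.576 ± 0.0364 between genotypes (SD, 2 and 4 pairs; exact 1-sided permutation p = 0.667), and 0.732 ± 0.0165 within a diet and 0.738 ± 0.0196 between diets (exact permutation p = 1).

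Ranks were then compared region by region. Within each library, −log10 p was ranked among the 71365 union regions that had a peak in all 8 libraries, 11538 of them far. Normal scores of these ranks were fitted with limma. A positive difference thus means a higher place among these regions in dLGN, not in the full lists. In the full lists far regions ranked lower in dLGN, as given above. Of these far regions 4696 (40.7%) passed an adjusted p of 0.05 between tissues, 2828 higher and 1868 lower in dLGN. Over all regions tested 33.1% passed, 16.5% higher and 16.6% lower, and over the other regions 31.6%. The median difference was 0.11 for far regions and -0.05 for other regions. Far regions without a peak in some library, those called for 1 tissue among them, do not enter this fit. With ranks of fold enrichment, 4586 far regions (39.7%) passed, 2412 higher and 2174 lower in dLGN, and of the other regions 28.8% passed, 8790 higher and 8454 lower.

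**Figure D4:**
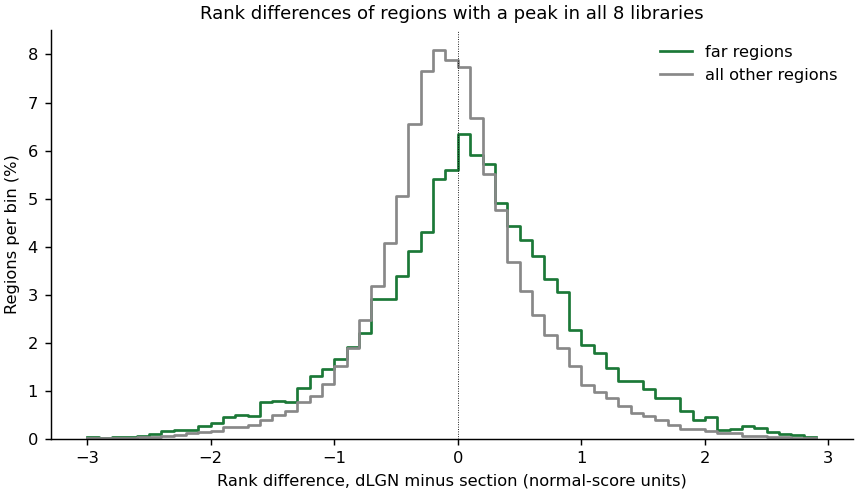
Distribution of the rank difference between tissues (dLGN minus section, normal-score units, bins of 0.1) for the 11538 far and 59827 other regions with a peak in all 8 libraries, as a percentage of each set. The median of far regions is 0.11, against -0.05 for other regions; differences beyond 3 are in the outermost bins.

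The 5 largest rises of rank in dLGN were at regions with strong dLGN peaks and faint section peaks. The region 276444 bp from Gm40892 in the long gap before Flrt2, an adhesion molecule that binds Unc5 receptors (chromosome 12, 93170966 to 93171823), had a −log10 p of 297 and 222 in PLX chow and 328.5 and 260.2 in control chow, against 6.14 and 5.00 in Fn14 KO and 5.49 and 4.27 in Fn14 WT. Its rank difference was 3.06 ± 0.10 (SE; limma, adjusted p = 0.00113). The region 1136756 bp from Pcdh18, a protocadherin gene (chromosome 3, 48606096 to 48606975), had 433 and 306 in PLX chow and 372 and 319 in control chow, against 15.1 and 3.18 in Fn14 KO and 9.70 and 3.77 in Fn14 WT, with a difference of 3.03 ± 0.40 (limma, adjusted p = 0.00367). The others were in the gaps of Ebf1 (a transcription factor) and Clint1, Cdh8 and Cdh11, and Ufl1 and Fut9 (the fucosyltransferase that makes the Lewis x sugar), with differences of 2.90 to 3.01; the last of these was lost without PLX chow 1 (limma, adjusted p = 0.0516). The dLGN and section values did not overlap in any of the 5, which were chosen for the size of this difference.

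The 5 largest falls were at regions with faint dLGN peaks and strong section peaks. The region 496058 bp from Diaph3 and 1621734 bp from Pcdh17 (chromosome 14, 86158756 to 86159843) had 5.37 and 6.19 in PLX chow and 7.14 and 6.19 in control chow, against 157 and 170.2 in Fn14 KO and 146 and 153 in Fn14 WT, and its rank difference was -3.10 ± 0.11 (limma, adjusted p = 0.00113). The region 168609 bp from Trim36 in the gap after Kcnn2, which encodes a calcium-activated potassium channel (chromosome 18, 45996000 to 45997382), had 5.89 and 9.80 in PLX chow and 3.04 and 4.31 in control chow, against 81.8 and 101 in Fn14 KO and 65.0 and 81.8 in Fn14 WT, with -2.92 ± 0.20 (limma, adjusted p = 0.00118). The other 3 lay in the gaps of 4930596D02Rik and 4930474N05Rik, BC030500 and Aadat, and Trib2 and Lpin1.

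No far region passed the same limma fit between Fn14 KO and Fn14 WT, or between PLX chow and control chow, and none of the 71365 regions did (0% in both). At an unadjusted p under 0.05 there were 1641 far regions (14.2%) for genotype and 417 (3.61%) for diet, against 12.2% and 3.36% of all regions. The fit used 1 spread for all 4 groups, though far regions overlapped less within a genotype than within a diet (Jaccard index 0.589 and 0.732). The genotype and diet shares can therefore not be compared as sizes of effect. The smallest adjusted p of a far region was 0.178 for genotype.

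Far regions over miRNA genes changed in both directions. Of the 31, 15 had a peak in all 8 libraries, and 4 ranked higher and 4 lower in dLGN at an adjusted p of 0.05 (limma; background 16.5% and 16.6%). The region over Mir137, which encodes a neuronal miRNA, lay 128400 bp from Dpyd (chromosome 3, 118433343 to 118434076) and had 40.3 and 49.8 in PLX chow and 70.7 and 40.3 in control chow, against 15.2 and 10.3 in Fn14 KO and 11.6 and 10.6 in Fn14 WT. Its rank difference was 0.82 ± 0.12 (limma, adjusted p = 0.00498). The region over Mir181a-1 and Mir181b-1, which share their seed, lay 96330 bp from Ptprc (chromosome 1, 137966005 to 137967053) and had 149.9 and 104 in PLX chow and 179 and 117 in control chow, against 46.9 and 17.3 in Fn14 KO and 33.5 and 21.9 in Fn14 WT, with 0.78 ± 0.18 (limma, adjusted p = 0.0202). That call was lost with ranks of fold (adjusted p = 0.0550, difference 0.60) and without PLX chow 1, control chow 1, control chow 2 or Fn14 WT 2.

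The miR-344 family, 8 of these 15 regions between Gm51483 and the imprinted gene Ndn on chromosome 7, split by member. Mir344d-2 ranked higher in dLGN (60.0, 68.9, 141 and 86.5 in dLGN, against 19.6, 11.4, 15.4 and 19.1 in section; difference 0.93 ± 0.14, limma adjusted p = 0.00572). Mir344c ranked lower (48.1, 32.4, 29.6 and 21.0 in dLGN, against 109, 73.0, 54.2 and 32.04 in section; difference -0.97 ± 0.13, limma adjusted p = 0.00372). Mir344i was higher and Mir344g lower, with differences of 0.47 ± 0.11 and -0.63 ± 0.17, and the calls were lost without any of 5 single libraries for Mir344i (PLX chow 1, either control chow, Fn14 KO 2, Fn14 WT 2) and of 6 for Mir344g (all but the Fn14 WT libraries). Mir344, Mir344-2, Mir344d-3 and Mir344f did not pass. Members of this family are related, and whether reads map uniquely to each copy was not tested. Of the remaining regions, Mir1952 ranked lower in dLGN (-0.76 ± 0.15), its hairpin touching only the edge of the region, and so did Mir129-2 with Mir129b (-0.49 ± 0.12), whose call was lost with ranks of fold (difference -0.22) and without PLX chow 2, control chow 1, Fn14 KO 1 or Fn14 WT 1.

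Regions over lncRNAs were commonest among the shared far regions. A far region overlapped an annotated lncRNA gene in 25.4% and a lncRNA start window in 5.44% of the 2686 far regions selected in all 8 libraries, against 16.6% and 0.998% of all 99568. Among dLGN-only regions these shares were 12.0% and 0.602%, and among section-only regions 17.2% and 1.22%. Wider regions overlap a gene or window more easily. Selected far regions had median widths of 508 to 564 bp, against 277 to 297 bp for all far regions of a library. The part of width in these shares was not tested. Windows under shared regions held a median of 6 CpGs and 25% had 10 or more. This compares with 19.1% of all 11588 lncRNA windows and 56.8% of all 21263 protein-coding windows. The 1069 windows under any far region had a median of 4, and 11.4% had 10 or more. None of the 11 windows under called regions had 10 (median 4), but 11 windows are too few to set apart from 11.4%.

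The strongest far region in all 8 libraries covered the start of Gm26901, 224512 bp from Pcmtd1 (chromosome 1, 7397561 to 7398719), with a −log10 p of 1031 and 971 in PLX chow and 1332 and 1035 in control chow, against 468 and 578 in Fn14 KO and 593 and 445 in Fn14 WT. Its rank did not pass the test between tissues (limma, adjusted p = 0.694). The next lay 109864 bp from Ogfrl1 (chromosome 1, 23255815 to 23257306; 325.3 to 1323), 236655 bp from Myt1l, a neuronal transcription factor gene (chromosome 12, 29290401 to 29291470; 323 to 901), 104231 bp from Zfat (chromosome 15, 68362503 to 68363804) and 61848 bp from Cp, ceruloplasmin (chromosome 3, 19894342 to 19895829). None of these ranks passed the test. These regions, the one at Gm26901 included, were chosen for high −log10 p in every library, the value that was then ranked. That choice left little room for a rank difference, so the test does not show equal accessibility between tissues. The Dubr window lay under a region with 488 and 509 in PLX chow and 725 and 579.7 in control chow, against 222 and 216 in Fn14 KO and 229 and 195 in Fn14 WT, and ranked higher in dLGN (0.37 ± 0.10; limma, adjusted p = 0.0337). 9130015L21Rik had 54.6 and 46.1 in PLX chow and 64.4 and 54.6 in control chow, with no section peak.

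The shared regions farthest from genes lay in the 4511 kb between Celf4, encoding a neuronal RNA-binding protein, and Pik3c3, a lipid kinase gene, on chromosome 18. The middle of this gap held 3 regions selected in all libraries, 2082558 to 2209675 bp from the nearest gene. The farthest of them (28055205 to 28056675) had 139 and 111 in PLX chow and 129 and 138 in control chow, against 25.4 and 34.8 in Fn14 KO and 23.6 and 15.8 in Fn14 WT, and ranked higher in dLGN (0.88 ± 0.14; limma, adjusted p = 0.00657). Another, 2187792 bp from Pik3c3 (28076856 to 28078791), had 110.1 to 288 in all libraries and did not pass (limma, adjusted p = 0.346). The widest shared regions were 2784 to 3424 bp long in the union, in the gaps of Zfp608 and Gramd3, Gm7135 and Macir, and Sox4 (a transcription factor) and Cdkal1. At the 50 kb limit, the shared regions just inside lay 50055 bp from Herpud2, 50116 bp from Gramd1b and 50158 bp from Rc3h1, with values of 22.0 to 185, and those just outside 49900 bp from Ddx3x, 49887 bp from Map3k1 and 49862 bp from Gm9733, with 23.8 to 292.

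Selected far regions were counted in each gene-free gap, without scaling by its length. Of 2967 gaps longer than 100 kb between protein-coding genes, 2008 held a selected far region in some library. The gap from Celf4 to Pik3c3, 4511 kb long, held the most, 43 to 52 in dLGN libraries and 43 to 61 in section libraries. It was followed by those from Agtr1b to Tbl1xr1 (1709 kb; 35 to 38 and 32 to 41), Zeb2 to Acvr2a (3697 kb; 31 to 35 and 26 to 44), Bcl11a to Fancl (2214 kb; 32 to 41 and 28 to 32) and Myc to Gsdmc (1786 kb; 32 to 36 and 26 to 33). Zeb2 and Bcl11a encode transcription factors of cortical neurons. In 384 of the 2008 gaps (19.1%) every dLGN library had more selected far regions than every section library, and in 174 (8.67%) every dLGN library had fewer.

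The largest excess in dLGN among gaps whose libraries did not overlap was on chromosome 7. Between Gm15501 and Tenm4, a teneurin gene, there were 32 and 27 regions in PLX chow and 34 and 28 in control chow, against 10 and 12 in Fn14 KO and 11 and 9 in Fn14 WT. Between Got2 and Cdh8 there were 36, 34, 34 and 38 in dLGN, against 10, 18, 14 and 23 in section. Between Slitrk1 and Slitrk6, encoding synaptic adhesion proteins, there were 25, 25, 24 and 25 in dLGN, against 5, 9, 13 and 11 in section. The gaps from Cdh11 to Cdh5 and from Prmt6 to Amy2b had means of 39.3 ± 3.30 and 24 ± 2.16 in dLGN and 24.5 ± 1.29 and 9.75 ± 2.50 in section (SD, n = 4 each).

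Of the 5 gaps with the largest deficit in dLGN among gaps whose libraries did not overlap, 4 are given here. Between Gask1b and Gria2, an AMPA receptor subunit gene, there were 9 and 10 regions in PLX chow and 8 and 10 in control chow, against 17 and 23 in Fn14 KO and 21 and 21 in Fn14 WT. By the rule that chose these gaps, no dLGN library reached the lowest section library. The others were Manea to Epha7, an ephrin receptor gene (6.50 ± 0.577 in dLGN and 16.8 ± 3.20 in section), Slc39a10 to Tmeff2 (10.3 ± 0.50 and 20.3 ± 4.19) and Fbxw7 to Gatb (5.75 ± 1.71 and 15.5 ± 2.65; SD, n = 4 each). With all deposited peaks in place of the selected ones, the gap from Manea to Epha7 had a mean of 67.5 in dLGN and 58.0 in section, the opposite direction. Both this gap and the one from Slc39a10 to Tmeff2 overlapped between tissues at 100000 selected regions.

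**Figure D5:**
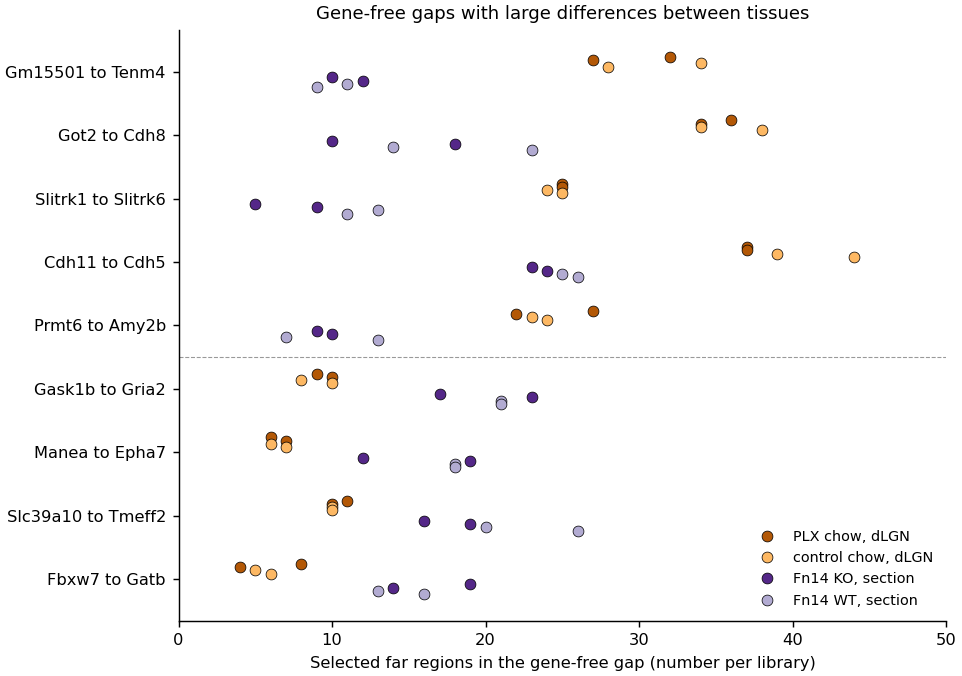
Number of selected far regions per library (points) in the 5 gene-free gaps with the largest excess and 4 of the 5 with the largest deficit in dLGN among gaps whose libraries did not overlap; each gap is named by the protein-coding genes at its ends. Between Gm15501 and Tenm4 the dLGN libraries have 27 to 34 and the section libraries 9 to 12, and between Gask1b and Gria2 they have 8 to 10 and 17 to 23.

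Single gaps held several called regions. Between Got2 and Cdh8 there were 7 dLGN-only and 1 section-only regions, between Stim2 and Pcdh7 6 and 1, and between Cntn3 and Chl1, a pair of neural adhesion genes, 5 and 0. Between Celf4 and Pik3c3 there were 3 dLGN-only and 8 section-only regions, between Olfm4 and Pcdh17 1 and 6, and between Ccer1 and Atp2b1 0 and 5. These 6 gaps were chosen after their counts were seen. 339 gaps held a dLGN-only and 417 a section-only region, and 148 held both.

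By nearest gene, lists of transcription factors and adhesion genes were counted. Of 2938 genes that were nearest to a selected far region, 500 (17%) had more such regions in every dLGN library than in every section library and 260 (8.85%) fewer, and all far regions together were 1.15-fold as many in dLGN. For 19 thalamic transcription factors the counts were 64 and 59 in PLX chow and 59 and 66 in control chow, against 31 and 44 in Fn14 KO and 42 and 46 in Fn14 WT, so that the tissues did not overlap (1.52-fold). 4 of the 15 with a far region were higher and none lower. Zic1, a zinc finger transcription factor, had 7, 6, 6 and 7 in dLGN, against 0, 2, 1 and 3 in section, and Shox2 6, 7, 6 and 7, against 2, 3, 3 and 4. Pou4f1 and Zic4 had 1 to 2 and 2 in dLGN and none in section.

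For 35 cadherin and adhesion genes the sums were 297 and 257 in PLX chow and 291 and 273 in control chow, against 132 and 229 in Fn14 KO and 191 and 255 in Fn14 WT (1.39-fold), with 8 of 29 higher in dLGN and none lower. Slitrk6 had 22, 21, 21 and 22 in dLGN, against 7, 7, 12 and 14 in section, and Cdh6 14, 16, 15 and 15, against 2, 7, 2 and 6. Slitrk5 had 10, 8, 14 and 7 in dLGN, against 12, 19, 18 and 18 in section, and was not counted as lower because the libraries overlapped. Means were also lower in dLGN, with overlap, for Pcdh17, Ntm, Flrt2, Pcdh10, Pcdh19, Cdh7 and Opcml. Fn14 KO 1 and Fn14 WT 2 lay far apart on this list, at 132 and 255. For 12 interneuron factors the sums were 23 to 35 in dLGN and 16 to 21 in section, 1.62-fold and the highest ratio of the 6 lists, with no overlap and 1 of 7 higher, Sox6, at 9, 8, 9 and 8 in dLGN and 4, 3, 5 and 4 in section.

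Cortical and hippocampal transcription factors did not separate as a list. The sums were 164, 142, 153 and 151 in dLGN and 118, 137, 142 and 153 in section, and the libraries overlapped (1.11-fold). 5 of the 21 with a far region were higher in dLGN and 2 lower. Pou3f3, a POU factor of upper-layer neurons, had 22, 22, 23 and 20 in dLGN, against 9, 13, 16 and 18 in section, and Nr2f2, a nuclear receptor, had 8, 7, 6 and 6, against 1, 2, 3 and 1. Pou3f1 and Neurod6 had fewer in dLGN, Pou3f1 with 1 in each dLGN library and 6, 3, 4 and 2 in section. Within 50 kb of the genes of this list or inside them, dLGN libraries had 140 to 146 selected regions and section libraries 150 to 159, and for the thalamic list 53 to 62 and 43 to 48. Near the interneuron list there were 27 to 31 in dLGN and 21 to 23 in section, near the adhesion list 266 to 278 and 242 to 257, near the glial list 66 to 69 and 57 to 79, and near the microglial list 22 to 28 and 29 to 34. The thalamic list was thus not the only one higher in dLGN near genes, nor the cortical list the only one higher in section.

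For 11 glial factors the sums were 22 to 26 in dLGN and 19 to 22 in section, with Nfib (9 to 13 and 8) the 1 of 4 genes that did not overlap, though with all deposited peaks Nfib had a mean of 37.0 in dLGN and 40.5 in section. For 14 microglial genes they were 40 and 37 in PLX chow and 39 and 37 in control chow, against 27 and 28 in Fn14 KO and 35 and 31 in Fn14 WT. Sall1, a transcription factor of microglia that other brain cells and kidney also use in development, was the 1 of 5 that did not overlap, at 8, 9, 9 and 7 in dLGN and 2, 5, 2 and 3 in section; it overlapped at 100000 selected regions. Means of this list in PLX chow and control chow were 38.5 and 38.0, and within 50 kb of these genes or inside them dLGN libraries had 22 to 28 selected regions and section libraries 29 to 34.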

How the data were processed

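ATAC-seq was made from 50000 nuclei per aliquot with the Nextera kit (labels' protocols). The authors ran the ENCODE ATAC-seq pipeline on mm10 with a peak p threshold of 0.01 and the multimapping setting at 0, per the deposited instructions, and the submitters' processing notes name deepTools 3.5.0. The sources used here do not give the aligner and peak caller. The names of the deposited lists record removal of duplicates and mitochondrial reads and a Tn5 adjustment. Each library has 1 deposited list of 248989 to 299822 peaks, and both Fn14 KO lists lie near the limit of 300000 that the names of the lists record. The lists have no header and follow the narrowPeak layout: the deposited score, the fold (a ratio), the −log10 p and −log10 q, and the summit. Read depth is unknown, so these values were ranked within a library and printed only as the authors' values per peak.

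Overlapping peaks (at least 1 bp) were merged within and then across libraries, in Python 3.11.15 (numpy 2.4.6, pandas 2.3.3). Genes and sequences came from RefSeq (GRCm38.p6). Exact permutation tests used scipy 1.17.1, and region-wise ranks were fitted with limma 3.58.1 in R 4.3.3 with 1 spread for all 4 groups and Benjamini-Hochberg adjustment over all 71365 regions; both were checked on simulated data. Tissue was the mean of the PLX and control chow groups minus the mean of the Fn14 KO and Fn14 WT groups. Named regions were, by rule, the 5 strongest in all 8 libraries, the 10 called per tissue with the highest lowest −log10 p, all called between genotypes or diets, the 3 farthest, the 3 widest, 3 on each side of the limit, the 5 gaps with most regions and 5 per direction, 5 rank differences per direction, and all over miRNAs; 1 such region and 1 such gap are not reported here. The members and gene lists were chosen with earlier results of these data known. Alternatives were the list length, the distance limit, the gene set, the ranking value, merging, the replicate block and leaving out each library. Control chow and Fn14 WT alone were compared as an alternative chosen after seeing the data.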

Additional observations from a re-analysis of the deposited data

Results flagged for a closer look

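In 150 groups of 4 libraries tested for a library far from the other 3, 7 stood out by a gap to the nearest library, as a share of the whole range, above Dixon's critical value; chance gives about 1 in 20 groups, and 6 of the 7 are given here. Fn14 KO 1 was the lowest section library in both of the next gaps. Between Agtr1b and Tbl1xr1 it had 32 selected far regions, against 40 to 41 in the other 3 (gap share 0.889). Between Manea and Epha7 it had 12, against 18 to 19 (gap share 0.857). In dLGN, control chow 1 had 24 regions between Slitrk1 and Slitrk6 where the other 3 had 25, and PLX chow 1 had 11 between Slc39a10 and Tmeff2 where the other 3 had 10. In both, the single odd count is the whole range (gap share 1).

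The shared region between Eipr1 and Myt1l had a −log10 p of 323 in Fn14 WT 2 and 376 to 385 in the other section libraries (gap share 0.866). The region over Mir100 had 31.3 in control chow 1 and 16.6 to 18.7 in the other dLGN libraries (gap share 0.858).

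The percentile of far regions minus that of other regions differed between tissues, at -3.80 in dLGN and 1.79 in section, a difference of -5.59 (exact 2-sided permutation p = 0.0286, n = 4 each).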

How the results depend on the processing

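Far regions counted as absent when merely not selected gave 2897 dLGN-only, 1669 section-only, 397 Fn14 KO-only, 533 Fn14 WT-only, 232 PLX chow-only and 221 control chow-only calls, which are 2.91, 1.68, 0.399, 0.535, 0.233 and 0.222% of far regions and 1.51, 1.20, 0.640, 0.491, 0.213 and 0.228% of other regions. With 25000 selected regions the calls were 60 and 128 for the tissues and 0, 0 and 0 for Fn14 KO, Fn14 WT and PLX chow. The tissue calls are 0.0603 and 0.129% of far regions and 0.0145 and 0.0442% of other regions. The width difference was -37.6 bp, the opposite sign (exact permutation p = 0.0571). With 100000 the calls were 2426, 2159, 156, 81, 23 and 36 in the order above. They are 2.437, 2.168, 0.1567, 0.08135, 0.0231 and 0.03616% of far regions. Of all regions, 1.206, 1.497, 0.2105, 0.06158, 0.01399 and 0.03045% were called. Only the Fn14 KO-only share was lower among far regions than among all regions. At this length PLX chow minus control chow reversed for the far share (-0.0405 points) and the Jaccard index (0.00150). With all deposited peaks these were -0.431 and 0.00428, and the genotype index reversed to -0.00178. There, the gap from Manea to Epha7 reversed (9.5 more in dLGN) and so did Nfib (-3.5). A 100 kb limit gave 1 Fn14 KO-only region. With all genes of the table the far share differed by 1.12 points (exact permutation p = 0.0571) and 195 and 269 regions were called for the tissues. These calls are 0.537 and 0.740% of the far regions of that setting, against 0.185 and 0.356% of its other regions. Ranks of fold reversed the percentile difference over all libraries (2.48, exact p = 0.188) and the Mir100 region (-0.0461), and single peaks gave -3.13 (exact p = 0.0313). With all union regions in the limma fit, absent ones at the lowest rank, 29714 far regions passed for tissue (29.8%, against 21.0% of other regions) and 1930 for genotype (1.94%, against 2.22%). Control chow against Fn14 WT alone, chosen after seeing the data, gave 1620 regions (14.0%, against 8.05% of other regions). The far share difference was then 1.82 points and the Jaccard difference 0.361 (exact permutation p = 0.33 for both, the smallest possible). The calls were 937 dLGN-only and 1107 section-only. They are 1.14 and 1.35% of far regions, against 0.385 and 0.615% of other regions. The cause of these changes was not tested.

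The replicate numbers of the labels are shared between groups, but 2 numbers do not show pairing (correlation of same-numbered deviations 0.144 for genotype and 0.000384 for diet). With the replicate block, the tissue difference in far share was 2.54 points (exact permutation p = 0.0556) and the genotype index difference 0.0365.

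Leaving out 1 library gave 1.88 to 2.97 points for the far share between tissues (exact permutation p cannot go below 0.0571), -2.62 to 0.0740 between genotypes and -0.786 to 1.14 between diets, a width difference of -9.42 to 9.38 bp, and a percentile difference of -1.58 to -0.515. The Jaccard difference was 0.344 to 0.410 between tissues, -0.00866 to 0.0444 between genotypes and -0.0320 to 0.0144 between diets. Calls were 514 to 693 dLGN-only (the highest without Fn14 KO 1), 682 to 902 section-only, 2 to 29 Fn14 KO-only, 1 to 13 Fn14 WT-only, 1 to 4 PLX chow-only and 0 to 1 control chow-only. Leaving out a library of either side loosens the calling rule, so higher counts are built into it and do not test the calls. The share of other regions called was not computed in these settings. Between tissues, the median limma rank difference of far regions was 0.0834 (without Fn14 KO 1) to 0.146 (without Fn14 KO 2). For other regions it was -0.0687 to -0.0346. The Mir100 region reversed without control chow 1 (-0.0252) or Fn14 KO 1 (-0.0243; range -0.0252 to 0.159), and Mir344d-3 without Fn14 WT 1 (range -0.646 to 0.144). Of 250 alternative fits of 25 named regions, 221 kept direction and side of the threshold. The region between Ufl1 and Fut9 lost its call without PLX chow 1 (limma, adjusted p = 0.0516). The depth behind these lists is unknown, so a missing peak says only that none was deposited.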
